A study of Zea mays with 48 samples.

Results

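The 100 most abundant leaf transcripts of maize were taken as the genes with the highest mean level in 8 uninfested libraries of the inbred B73. A level here is CPM, the count of a gene per 1000000 gene counts of its library. The choice was made among 44146 features with identifiers that start with Zm, out of 46272 features in all. Before it, 11 listed genes had been left out, 8 of them listed first as C4 genes. The libraries come from leaf 4 of plants 22 days old. In infested groups, 200 adult female spider mites (Tetranychus urticae) fed for 24 hours inside a wax barrier on a leaf section, and control groups had the barrier without mites. There were 12 groups of 4 libraries. In the B96 experiment they were infested and control B96, infested and control F1 plants of B73 and B96, and infested and control B73 (replicates 1 to 4). The B75 experiment had infested and control B75, infested and control F1 plants of B73 and B75, and infested and control B73 (replicates 5 to 8). Infested libraries held 9.98 to 16.6 M gene counts and control libraries 12.5 to 20.9 M (M, 1000000). The number of plants behind a library is not stated, and p-values measure the spread between these libraries.

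In a green leaf a small number of genes gives a large part of the messenger RNA. As background, the most abundant nuclear transcripts of leaves are usually those for light-harvesting proteins, photosystem subunits and enzymes of carbon fixation, with smaller numbers for housekeeping and stress proteins. Spider mites pierce leaf cells and empty them, and chewing and cell-sucking herbivores commonly set off jasmonate-dependent defence programmes while transcripts for photosynthesis decline. B73 is the inbred of the maize reference genome, while B96 and B75 have been described as less susceptible to spider mites. The count table gives identifiers without gene names, and the reference table used here, of a later assembly, matched 0 of the 100 members. The members are therefore described by identifier, rank and level, no function is assigned to any of them, and no sequence is printed. CPM is not corrected for gene length, so the ranks are ranks of read counts.

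The 8 uninfested B73 libraries that chose the members gave them mean levels of 904 to 6892 CPM, with a median of 1315 CPM. The median over all Zm features with a count was 5.35 CPM. Of the 100 members, 5 stood above 5000 CPM, 23 above 2000 CPM and 77 below that. Zm00001d023516 was the highest with 6892 ± 1049 CPM, Zm00001d053675 the second with 6743 ± 848 CPM and Zm00001d023559 the third with 6239 ± 811 CPM (SD, n = 8). At the lower end the ranks were closely packed. The last member, Zm00001d030127, had 904 ± 136 CPM, and the first gene outside, Zm00001d046971, had 903 ± 89.5 CPM (SD, n = 8). A choice from replicates 1 to 4 alone shared 96 of the 100 members, and one from replicates 5 to 8 alone shared 90. Both sets are part of the 8 libraries, so a large overlap is built in. The overlap of these choices with each other was not counted. No feature outside the Zm identifiers reached the members' range, the highest of them standing at 50.5 CPM. The 11 genes left out served as the check of leaf tissue, with 7 among the 100 highest features of uninfested B73, led by Zm00001d038163 with 30684 ± 2627 CPM (SD, n = 8). Of the other 4, 3 ranked from 126 to 234 and Zm00001d044095 ranked 6339 with 29.7 CPM.

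Together the members held a smaller share of the gene counts in infested than in control leaves of each line. In B96 the share was 12.95% ± 0.583 in infested and 18.9% ± 0.721 in control leaves (SD, n = 4 each). The F1 of B73 and B96 had 12.8% ± 1.17 in infested and 18.2% ± 2.49 in control leaves. In B75 the share was 12.9% ± 0.451 in infested and 16.5% ± 0.745 in control leaves, and in the F1 of B73 and B75 it was 11.6% ± 0.330 in infested and 16.2% ± 0.940 in control leaves. In these 4 lines no infested library reached the lowest control library. The B73 libraries of the B75 experiment gave 12.6% ± 1.22 in infested and 17.7% ± 2.23 in control leaves, and those of the B96 experiment 15.4% ± 1.68 in infested and 19.2% ± 1.65 in control leaves. Infested replicate 1 of that last group stood apart at 17.9%, inside the range of its controls, while the other 3 lay between 14.2% and 15.02%. The infested libraries were also shallower than the controls, as given above, and the part of depth in these shares was not tested. No test is given for a sum over chosen members. In bulk leaf RNA, fewer cells of a type and less RNA per cell cannot be told apart.

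**Figure D1:**
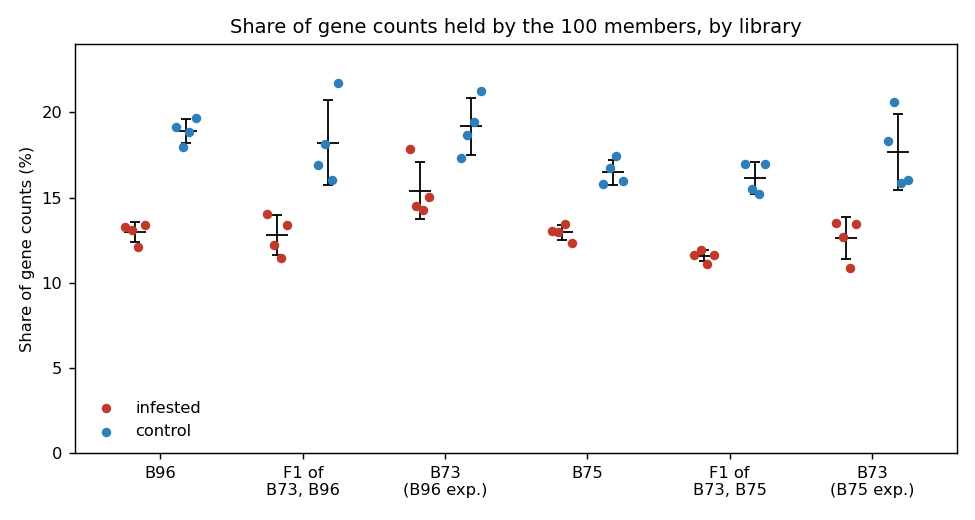
Share of all gene counts held by the 100 members (percent, y axis) in each library of the 6 line and experiment combinations; points are libraries, red for infested and blue for control, with the mean and SD of 4 libraries in black. The infested libraries lie between 10.9% and 17.9% and the control libraries between 15.2% and 21.7%.

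The 10 highest members lost the least of their share, and how much they lost depended on 1 rising gene, Zm00001d053675. Their share in infested leaves was 0.827 to 0.928 of that in control leaves over the 6 line and experiment combinations, against 0.652 to 0.785 for ranks 11 to 50 and 0.541 to 0.771 for ranks 51 to 100. Without Zm00001d053675 the 10 highest gave 0.653 to 0.768. That gene was left out with its rise known, and risers of the lower ranks, such as Zm00001d002000 at rank 30, were kept. The bands were therefore not treated alike, and these ratios do not show that 1 gene made the difference between them. Without that gene of the highest ranks, the ratios in the F1 of B73 and B75 were 0.657 for the highest, 0.653 for ranks 11 to 50 and 0.648 for ranks 51 to 100. In the same order they were 0.656, 0.667 and 0.630 in the F1 of B73 and B96, and 0.653, 0.665 and 0.541 in B96. B75 gave 0.707, 0.753 and 0.717. The B73 sets gave 0.741, 0.652 and 0.653 in the B75 experiment, and 0.768, 0.785 and 0.771 in the B96 experiment. B96 had the lowest ratio of ranks 51 to 100 among the 6 combinations. There, ranks 51 to 100 held 3.20% of the gene counts in infested and 5.91% in control B96, a ratio of 0.541, and ranks 11 to 50 held 5.78% in infested and 8.70% in control B96. The 10 highest members held 3.97% in infested and 4.28% in control B96, with overlapping libraries. Without Zm00001d053675 they held 2.32% in infested and 3.55% in control B96, with no overlap. The same exclusion in B75 gave 3.15% in infested and 4.46% in control leaves, against 4.40% in infested and 4.88% in control leaves with that gene included.

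Single members were tested in the 4 lines whose libraries took no part in the choice, with edgeR's quasi-likelihood test over all genes of each experiment and a Benjamini-Hochberg adjusted p of 0.05 as threshold. All 100 members were in the tested set of both experiments. In B96, 80 members fell and 5 rose, where 23% of all 22569 tested genes fell and 24.8% rose. The median log2 fold change of the members was -1.13, a level of 0.457 of the control, and that of all tested genes was 0.00. In the F1 of B73 and B96, 79 members fell and 3 rose (all genes: 20.3% fell and 20.3% rose), with a median of -0.98. In B75, 50 members fell and 7 rose (all genes: 17.1% fell and 21.7% rose), with a median of -0.58. In the F1 of B73 and B75, 82 members fell and 3 rose (all genes: 23.6% fell and 22.4% rose), with a median of -0.99. The fold changes behind these counts are on library sizes scaled by TMM, which assumes that most genes do not change. With libraries scaled to their total counts instead, the median of all genes shifted to 0.18 in B96 and 0.13 in the F1 of B73 and B75, and the members' medians were -0.94 in B96, -0.82 in the F1 of B73 and B96, -0.47 in B75 and -0.82 in the F1 of B73 and B75. Under total counts the share of rises among all called genes was 67.7% in B96, against 51.9% under TMM, 63.9% against 49.99% in the F1 of B73 and B96, 70.6% against 55.9% in B75, and 66.8% against 48.6% in the F1 of B73 and B75.

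Many of the falls were large. Falls past 2-fold numbered 54 in B96, where 10.1% of all tested genes passed that size, 48 in the F1 of B73 and B96 (6.18% of all genes), 9 in B75 (3.36%) and 49 in the F1 of B73 and B75 (6.45%). Rises past 2-fold were 1 in B96 (13.8% of all genes), 1 in the F1 of B73 and B96 (10.5%), 2 in B75 (12.3%) and 2 in the F1 of B73 and B75 (11%). In CPM, every infested library lay below every control library for 78 members in B96 (14.8% of all tested genes), 51 in the F1 of B73 and B96 (10.2%), 65 in B75 (11.6%) and 64 in the F1 of B73 and B75 (12.6%). Every infested library lay above every control library for 6 members in B96 (30.9% of all tested genes), 4 in the F1 of B73 and B96 (18.2%), 8 in B75 (24.9%) and 5 in the F1 of B73 and B75 (26.6%). The middle 50 members of B96 had log2 fold changes from -1.53 to -0.59, and those of B75 from -0.73 to -0.40. The count for B75 depended on the fit, with 77 members lower when only the 8 B75 libraries were used.

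**Figure D2:**
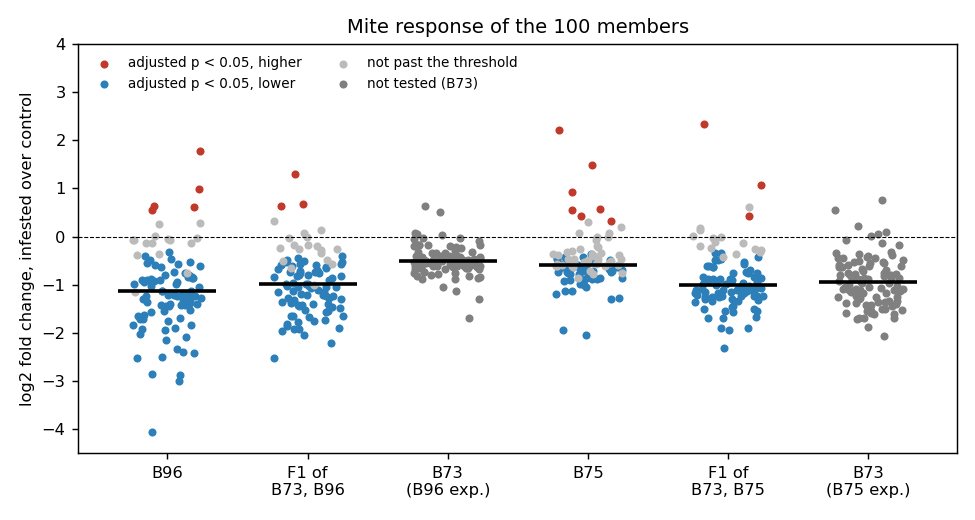
Log2 fold change of each of the 100 members in infested over control leaves (y axis) for the 6 line and experiment combinations; each point is a member, red or blue where it passed an adjusted p of 0.05, light grey where it did not, dark grey in B73, where no test was made, and black lines are medians. The medians run from -1.13 in B96 to -0.51 in B73 of the B96 experiment.

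The B73 libraries can only be described, since their controls chose the members and a high control level is built into the choice. The median log2 fold change was -0.51 in B73 of the B96 experiment and -0.95 in B73 of the B75 experiment, with 95 members below 0 in the first and 94 in the second. Past 2-fold, 4 members were lower in the first (2.17% of all tested genes) and 48 in the second (6.18%), and 0 were higher in either (9.79% and 9.91%). Without overlap, 26 members were lower and 2 higher in B73 of the B96 experiment (5.64% and 16.9% of all tested genes), and 58 were lower and 3 higher in B73 of the B75 experiment (7.97% and 26.9%). Both sets of uninfested B73 libraries had similar levels for the members. The mean of replicates 5 to 8 over that of replicates 1 to 4 ran from 0.692 to 1.42 with a median of 0.924, so that 100 of 100 members lay within 2-fold.

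The 4 tested responses share no library, although those of 1 experiment share its estimate of the spread. Of the 100 members, 42 fell in all 4 lines, a pattern held by 7.37% of the 21539 genes tested in both experiments. In both F1s 77 members fell (16.3% of those genes), and in both inbreds 45 fell (9.58%). Another 35 fell in B96 without a call in B75 (12.8% of those genes), and 0 rose in one inbred while falling in the other (0.84% of those genes higher in B75 and lower in B96, 0.492% the other way). The difference between B96 and B75 was not tested, because the lines stand in separate experiments. Patterns that include B75 rest on its 50 falls, a number that depended on the fit, as given above. They were not counted under other fits. In CPM without overlap, 65 members were lower in B75 (11.6% of all tested genes) and 78 in B96 (14.8%). A total of 87 members fell in at least 1 line and rose in none (35.8% of those genes), 8 rose in at least 1 and fell in none (36.7%), 5 were called in none (24.7%) and 0 had calls in opposite directions (2.8%). With the untested B73 responses included, 85 members had log2 fold changes below 0 in all 6 responses and 3 had values above 0 in all 6. No share over all genes was computed for these patterns. A lower infested level in B73 is partly built into the choice, because its controls chose the members.

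The share of falling genes was graded with abundance in the whole table. Ranked by their level in uninfested B73, the 900 genes after the members fell in 57.8% of cases in infested B96, the 9000 after those in 31.2% and the genes ranked lower in 14.2%. The corresponding shares in B75 were 42.3%, 25.1% and 9.33%. Rises ran the other way, with 15.3%, 22.3% and 27.7% of the genes in the same 3 tiers in B96. The median log2 fold change in B96 was -0.51, -0.08 and 0.12 in the 3 tiers, against the -1.13 of the members. Calls also depend on the number of reads behind a gene, and the part of depth in this gradient was not tested.

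**Figure D3:**
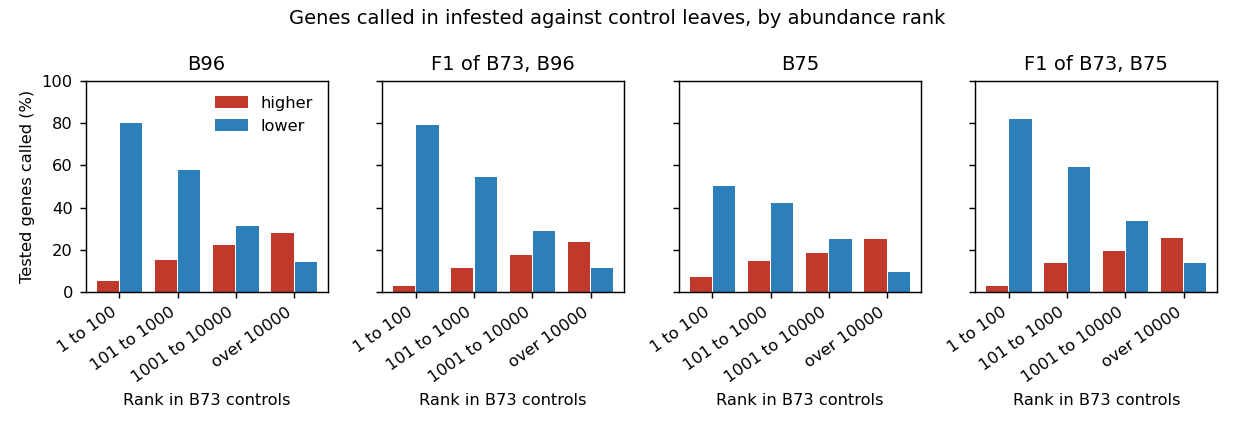
Percentage of tested genes that were called higher (red) or lower (blue) in infested against control leaves (y axis) in 4 tiers of abundance rank in uninfested B73 (x axis), for the 4 lines tested. The first tier holds the 100 members, with 80% lower in B96, 79% in the F1 of B73 and B96, 50% in B75 and 82% in the F1 of B73 and B75.

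The members that rose with mites in all 4 tested lines were Zm00001d053675 and Zm00001d002000. Rises in all 4 lines were found in 9.92% of the genes tested in both experiments. Zm00001d053675, second by level in uninfested B73, became the highest Zm gene in each of the 6 infested groups once the 11 listed genes had been left out. In B96 it had 17993, 16195, 15513 and 16615 CPM in infested leaves, against 7281, 9429, 5504 and 7201 CPM in control leaves. All 4 infested libraries stood far above the control libraries, and the log2 fold change was 0.99 ± 0.23 (SE, adjusted p = 1.2e-03 by edgeR). In B75 it had 11564, 12288, 15158 and 10864 CPM in infested leaves, against 5193, 4062, 3642 and 3865 CPM in control leaves. The groups did not overlap, and B75 controls were the lowest of the 6 control groups (log2 fold change 1.48 ± 0.16, adjusted p = 2.2e-07 by edgeR). The F1 of B73 and B75 had 15352, 14749, 14092 and 13184 CPM in infested leaves, against 5368, 7701, 6713 and 4736 CPM in control leaves (log2 fold change 1.07 ± 0.16). In the F1 of B73 and B96 the infested libraries had 11237, 12918, 13417 and 19274 CPM, against 6805, 6564, 8666 and 9923 CPM in control leaves. Replicate 4 was the highest of both groups there. The log2 fold change was 0.68 ± 0.23 with an adjusted p of 2.1e-02 by edgeR, which became 0.12 without infested replicate 4, 0.070 without control replicate 1 or 2 and 0.11 when only the 8 libraries of the contrast were fitted. In B73, described only, it averaged 10633 ± 2096 CPM in infested and 6923 ± 636 CPM in control leaves of the B96 experiment, and 11329 ± 567 CPM in infested and 6564 ± 1091 CPM in control leaves of the B75 experiment (SD, n = 4 each).

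Zm00001d002000 had the largest rise among the members in each of the 4 tested lines, and its control level differed between them. In infested B96 it reached 14155, 12435, 12016 and 12712 CPM, against 2966, 4261, 2457 and 3426 CPM in control leaves (log2 fold change 1.78 ± 0.27, adjusted p = 1.1e-05 by edgeR). Infested B75 had 1075, 1016, 1551 and 1036 CPM, against 274, 218, 225 and 223 CPM in control leaves (2.22 ± 0.19, adjusted p = 6.0e-09 by edgeR). The groups were far apart in both inbreds, but the infested B75 libraries remained below all control libraries of B96. The F1 of B73 and B75 had 3327, 3023, 2866 and 2613 CPM in infested leaves, against 477, 595, 515 and 493 CPM in control leaves (2.35 ± 0.19). The F1 of B73 and B96 had 4834, 7018, 7069 and 10544 CPM in infested leaves, against 2143, 2164, 2833 and 3638 CPM in control leaves (1.30 ± 0.27). As for Zm00001d053675, replicate 4 was the highest library of both groups of this F1. In B73 it averaged 3400 ± 996 CPM in infested and 2014 ± 70.8 CPM in control leaves of the B96 experiment, where infested replicate 1 stood beside the highest control at 2103 CPM, and 2938 ± 228 CPM in infested and 1463 ± 429 CPM in control leaves of the B75 experiment (SD, n = 4 each).

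Among the members that fell, Zm00001d003559 had the largest fall in B96. It had 83.6, 99.2, 63.2 and 103 CPM in infested B96, against 1165, 1101, 1390 and 1385 CPM in control B96. Every infested library was below every control library by more than 10-fold, and the log2 fold change was -4.05 ± 0.30 (adjusted p = 8.0e-10 by edgeR). In the F1 of B73 and B96 it had 622, 420, 268 and 437 CPM in infested leaves, against 1676, 1702, 1609 and 2329 CPM in control leaves (-2.21 ± 0.28). B75 had 588, 587, 715 and 632 CPM in infested leaves, against 2233, 2165, 2249 and 2327 CPM in control leaves (-1.93 ± 0.18). The F1 of B73 and B75 had 441, 437, 500 and 612 CPM in infested leaves, against 2406, 2012, 2105 and 2182 CPM in control leaves (-2.30 ± 0.19). Every infested library lay below every control library in these 4 lines, and the B96 controls were the lowest of the 4 control groups. In B73 it averaged 984 ± 320 CPM in infested and 2230 ± 177 CPM in control leaves of the B96 experiment, and 720 ± 199 CPM in infested and 1969 ± 229 CPM in control leaves of the B75 experiment (SD, n = 4 each).

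Zm00001d044495 had the largest fall in B75, with 286, 494, 239 and 244 CPM in infested leaves, against 932, 1459, 1372 and 1057 CPM in control leaves (log2 fold change -2.05 ± 0.25, adjusted p = 1.2e-06 by edgeR). It also fell in the F1 of B73 and B75, with 529, 646, 726 and 662 CPM in infested leaves, against 1838, 1810, 3038 and 1863 CPM in control leaves. Both comparisons were without overlap. In B96, where its control level of 257 ± 23.4 CPM was far under that of the other lines, infested leaves had 51.2 ± 4.91 CPM (SD, n = 4 each). The log2 fold change of infested over control B96 was -2.52 ± 0.18 (adjusted p = 6.4e-10 by edgeR), and its difference from B75 was not tested. Zm00001d044495 also fell in the F1 of B73 and B96 (-1.91 ± 0.18, adjusted p = 3.1e-08 by edgeR), again without overlap in either line. Zm00001d026603 had the second largest fall in B96 among the members without overlapping libraries, with 217, 476, 346 and 470 CPM in infested leaves, against 2878, 2340, 2925 and 2327 CPM in control leaves (-2.99 ± 0.55). Its libraries overlapped in both F1s and in both sets of B73. In the F1 of B73 and B96 the fall still passed the threshold (-1.73 ± 0.52, adjusted p = 1.1e-02 by edgeR). In B75, where the libraries did not overlap, the log2 fold change of -0.85 ± 0.46 missed the threshold (adjusted p = 0.15 by edgeR). Zm00001d023376 had the second largest fall in the F1 of B73 and B96 among the members without overlapping libraries. It had 712, 640, 566 and 1065 CPM in infested leaves, against 1552, 2094, 1855 and 4697 CPM in control leaves. Control replicate 4 was more than 2-fold above the other 3 controls, and without it the log2 fold change of -1.97 ± 0.35 became -1.35.

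**Figure D4:**
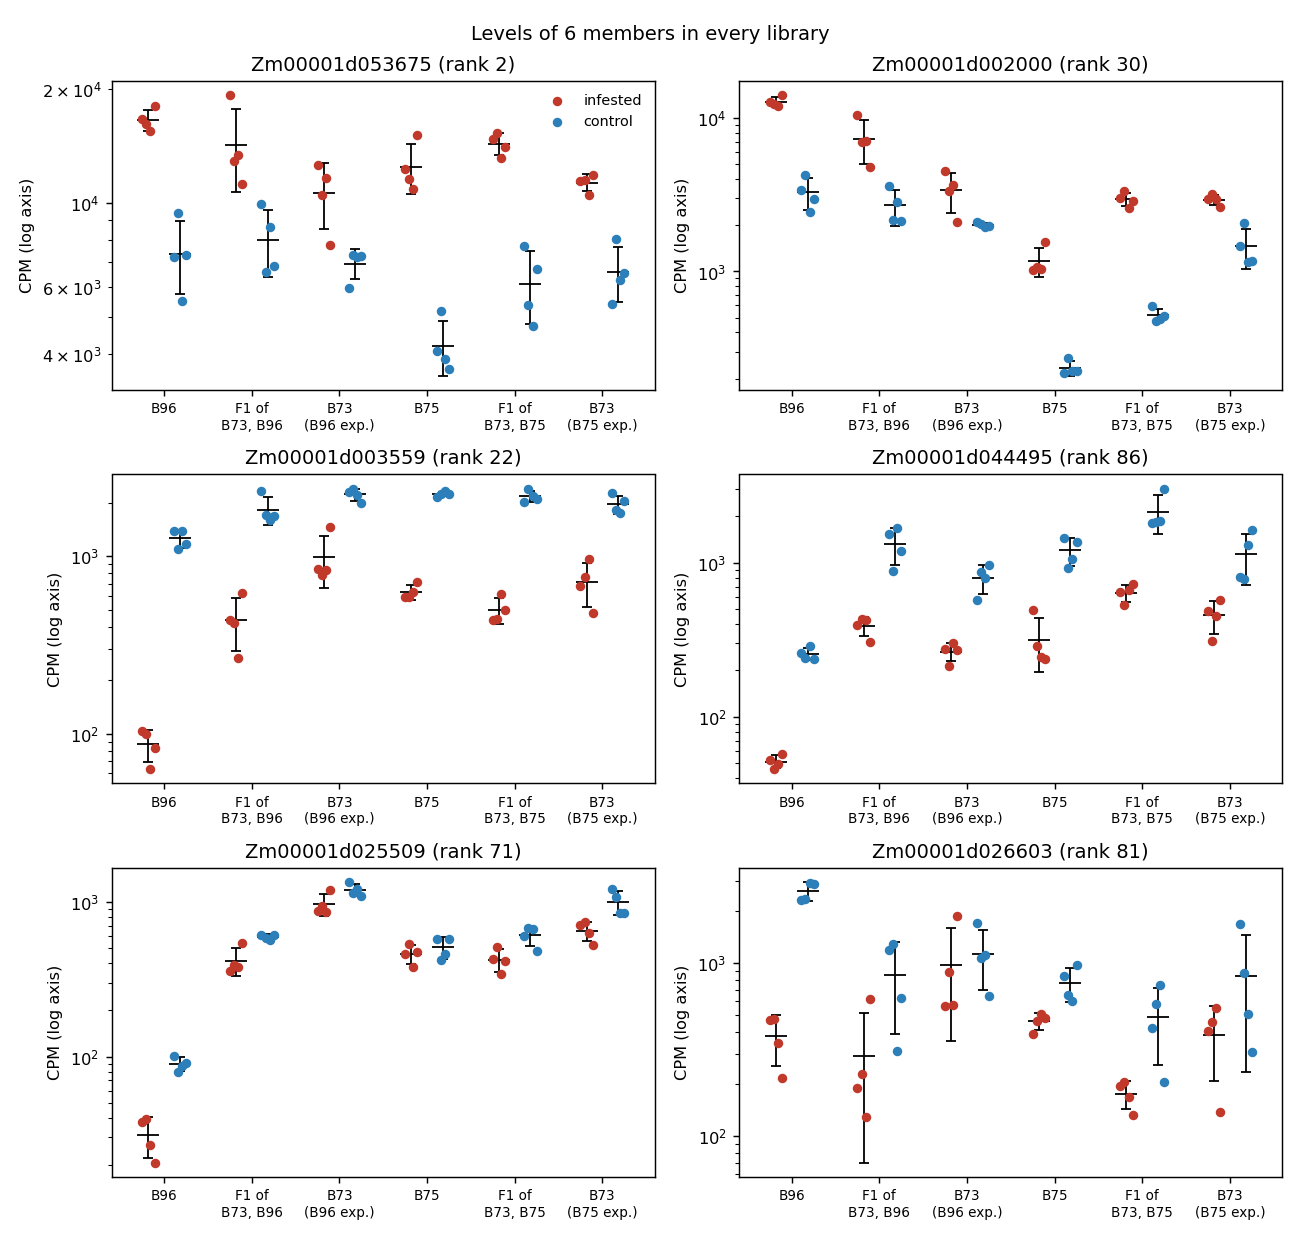
CPM (y axis, log scale) of 6 members in every library of the 6 line and experiment combinations; points are libraries, red for infested and blue for control, with the mean and SD of 4 libraries in black. Zm00001d053675 and Zm00001d002000 are higher in infested leaves, and Zm00001d003559 drops to 87.3 CPM in infested B96, against 1260 CPM in control B96.

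The highest member of uninfested B73, Zm00001d023516, passed the threshold in 1 of the 4 tested lines. It had 4613, 5390, 6444 and 6311 CPM in infested leaves of the F1 of B73 and B96, against 8385, 6448, 9788 and 9683 CPM in control leaves (log2 fold change -0.74 ± 0.20, adjusted p = 0.0057 by edgeR). Infested B96 had 3669 ± 474 CPM and control B96 3302 ± 492 CPM (SD, n = 4 each), overlapping groups that are well under the level of B73. The third member, Zm00001d023559, fell in all 4 tested lines, by 0.89 to 1.22 on the log2 scale. In B75 it had 4525, 4626, 4180 and 3639 CPM in infested leaves, against 6215, 7361, 8445 and 7039 CPM in control leaves, without overlap.

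Whether an inbred and its F1 responded differently was tested as a difference of their responses, in which no B73 library enters. For B96 minus its F1 with B73, 3 members had a lower fold change in B96 and 0 a higher one (all genes: 4.06% lower and 4.9% higher), and the members' median difference was -0.14 with a median SE of 0.31. The 3 were Zm00001d003559 (-1.83 ± 0.38, adjusted p = 4.4e-03 by edgeR), Zm00001d025509 (-1.06 ± 0.29, adjusted p = 2.3e-02) and Zm00001d036371 (-0.72 ± 0.20, adjusted p = 2.6e-02), the last of them named after its value was seen. The count of 3 became 1 without infested replicate 1 of B96 and 6 without control replicate 4 of the F1, and DESeq2 gave 6 lower and 1 higher. Zm00001d036371 averaged 829.4 ± 86.6 CPM in infested and 1676 ± 75.3 CPM in control B96, and 1046 ± 66.8 CPM in infested and 1340 ± 130 CPM in control leaves of the F1 (SD, n = 4 each). The call of Zm00001d025509 was lost without infested replicate 1 of B96 (adjusted p = 5.2e-02 by edgeR) or of the F1 (5.5e-02). That of Zm00001d036371 was lost without infested replicate 1 of B96 (5.9e-02) or control replicate 3 of the F1 (5.5e-02), and stood at 5.0e-02 without control replicate 3 of B96. For B75 minus its F1 with B73, 1 member had a higher fold change in B75 and 0 a lower one (all genes: 1.83% higher and 0.634% lower). The members' median difference was 0.36 with a median SE of 0.26, and 87 of 100 differences were above 0. The median over all tested genes was 0.06. The member past the threshold, Zm00001d012036, averaged 1082 ± 97.1 CPM in infested and 1453 ± 141 CPM in control B75, and 548 ± 75.9 CPM in infested and 1382 ± 152 CPM in control leaves of the F1 (SD, n = 4 each). Its difference of 0.98 ± 0.25 had an adjusted p of 4.2e-02 by edgeR, and the call was lost in 12 of 16 fits that left out 1 library, where the adjusted p reached 0.11. A member that misses the threshold is not shown to respond alike in an inbred and its F1.

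The levels of uninfested lines can be set beside B73 only as a description, since a high B73 level chose the members. Control B96 stood at a median of 0.972 of control B73 over the members, with 15 members under 0.5 of B73 and 5 over 2-fold. Control B75 stood at a median of 0.891, with 9 members under 0.5 and 1 over 2-fold. In both inbreds 5 members were under 0.5 of B73. Members under 0.1 of B73 were found in B96, and they were Zm00001d025509 and Zm00001d030557. Zm00001d025509 had 91.4, 79.0, 86.4 and 101.3 CPM in control B96, against 1095, 1146, 1200 and 1341 CPM in control B73 of the same experiment, and 608, 583, 568 and 613 CPM in control leaves of their F1. The F1 libraries lay between those of both parents. Zm00001d030557 averaged 152 ± 11.9 CPM in control B96 and 764 ± 188 CPM in control leaves of the F1, against 1811 ± 396 CPM in control B73 (SD, n = 4 each). The genome used for counting was that of B73 for each line, where reads of B96 or B75 can be lost to sequence differences, and the size of that loss was not tested.

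In infested leaves more members of B96 stood far under B73. The infested B96 level was under 0.5 of infested B73 for 28 members and under 0.1 for 4, with a median of 0.697. Infested B75 stood at a median of 1.04 of infested B73, with 4 members under 0.5. Each inbred is set beside the B73 of its own experiment, and these B73 sets differed. The members' median log2 fold change was -0.51 in B73 of the B96 experiment and -0.95 in that of the B75 experiment. Infested replicate 1 of the B96 experiment's B73 had a share inside the range of its controls. The part of this in the ratios was not tested. The uninfested F1 of B73 and B96 had 2 members under 0.5 of B73 and the uninfested F1 of B73 and B75 had 12. Uninfested F1 levels lay between those of the parents for 42 members in the cross with B96 and for 41 in the cross with B75, and below both parents for 38 in the first and 40 in the second. The median F1 level was 0.920 of the mean of both parents in the first cross and 0.912 in the second. For the 15 members that were low in B96 the median was 1.36 of the parental mean, with a range of 0.779 to 2.504. For the 9 that were low in B75 it was 0.634, with an overlapping range of 0.551 to 1.391. These members were picked from the same control libraries that form the parental mean, and the B73 controls also chose all members. The ratios are therefore tied to the choice, and no difference between the crosses can be read from them. The order of the members by level was also kept to different degrees. Spearman's rho with the mean of uninfested B73, across members that are not independent replicates, was 0.539 in infested and 0.582 in control B96, and 0.732 in infested and 0.673 in control B75.

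The list of the 100 highest genes changed with both line and mites. In control leaves 69 members were among the 100 highest of B96, 87 among those of its F1, 71 among those of B75 and 71 among those of its F1. In infested leaves the numbers were 40 in B96, 48 in its F1, 59 in B75 and 50 in its F1. B73, whose controls chose the members, had 73 in infested and 96 in control leaves of the B96 experiment, and 59 in infested and 90 in control leaves of the B75 experiment. Of the members, 24 belonged to the 100 highest of all 12 groups, 50 to those of all 6 control groups, 27 to those of all 6 infested groups, and 18 to those of no infested group. The lowest rank of any member in infested B96 was 5771.

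**Figure D5:**
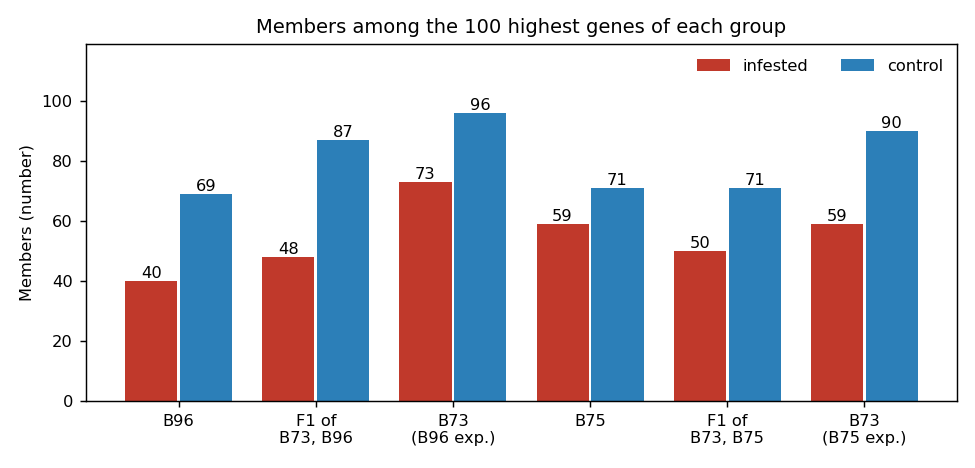
Number of the 100 members that are among the 100 highest Zm genes by mean CPM (y axis) in infested (red) and control (blue) leaves of the 6 line and experiment combinations, with the 11 listed genes left out of each ranking. Infested B96 keeps 40 members, against 69 in control B96.

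The other places were held by genes from outside the members, in control leaves as well. Among the 100 highest, control B96 had 31 of them and control B75 had 29. In infested B96, 60 other genes were among the 100 highest, with a median of 1365 CPM in infested and 448 CPM in control leaves. They held 15.1% of the gene counts in infested and 4.13% in control leaves, and 47 of them were over 2-fold and 15 over 10-fold above the control. In infested B75 such genes numbered 41, with 6.06% of the gene counts in infested and 2.34% in control leaves, 23 of them over 2-fold above the control. In all 6 infested groups 12 genes from outside the members were among the 100 highest, and 106 were so in at least 1. These genes were picked by their infested level, so no test is given. How many of them were also among the 100 highest of the line's own controls was not counted.

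The spread between replicates of a group differed between lines. The median coefficient of variation of the members was 15.1% in infested and 7.86% in control B96, and 10.5% in both infested and control B75. In the F1 of B73 and B96 it was 20.9% in infested and 21.8% in control leaves. Members with a coefficient of variation over 30% numbered 14 in infested and 0 in control B96, 2 in infested and 1 in control B75, 31 in infested and 30 in control leaves of the F1 of B73 and B96, and 3 in infested and 20 in control leaves of the F1 of B73 and B75. B73 had 24 such members in infested and 15 in control leaves of the B96 experiment, and 22 in infested and 32 in control leaves of the B75 experiment. Zm00001d032197 was the most variable member in 5 of the 12 groups. Over the 900 genes after the members the median coefficient of variation was 12.1% in infested and 8.46% in control B96.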

How the data were processed

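Poly(A) RNA of maize leaves was sequenced from strand-marked libraries, per the labels' protocols. The deposited table holds whole-number counts per gene feature for 48 libraries, made by the authors with STAR 2.5.3a on B73 RefGen_v4 and HTSeq 0.9.1, per the submitters' processing notes. Settings of the aligner and counter: not given in the sources used here. Reads without a gene, in 5 summary lines, made up 12.7% to 28.0% of a library (mean 17.6%) and were left out of every total and test. Near-identical gene copies can lose reads that way, which makes their levels uncertain.

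CPM were computed on the summed gene counts. Tests used R 4.3.3 and edgeR 4.0.16, one fit of group means for each experiment with its 24 libraries (B73 replicates 1 to 4 with B96, 5 to 8 with B75, as the design text assigns them), filterByExpr with a minimum count of 10, TMM scaling, the quasi-likelihood test and Benjamini-Hochberg adjustment over all genes of the fit at 0.05. The fit was also run on simulated data, with the same spread for every gene and equal numbers of raised and lowered genes. That setting does not check the scaling where the most abundant genes fall together. The SE of a log2 fold change was derived from the test's F value. Overlap between groups was judged on CPM. DESeq2 1.42.0, other scalings, no filter, the replicate number as a block, fewer libraries and other choices of members were alternatives.

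The members, the tests and the lists were chosen with earlier results of these data known. Named genes were the 3 highest members, those at the threshold, at most 2 rising and 2 falling members with the largest called change per comparison (without overlapping libraries, for a mite response), and members under 0.1 of B73 in a line. One more called difference, Zm00001d036371, was named after its value was seen. No gene lists by function could be formed, because no identifier matched an annotation.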

Additional observations from a re-analysis of the deposited data

Results flagged for a closer look

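In 7 of 156 combinations of a named gene or the summed share with a group, 1 library of 4 stood apart from the other 3. Chance alone gives this in about 1 of 20 groups. For Zm00001d053675, control B73 replicate 4 of the B96 experiment had 5972 CPM, and the others 7185 to 7303 CPM. For Zm00001d023559, infested B96 replicate 1 had 3902 CPM, and the others 3294 to 3397 CPM. For Zm00001d002000, infested B75 replicate 3 had 1551 CPM (others 1016 to 1075 CPM) and control B75 replicate 1 had 274 CPM (others 218 to 225 CPM). For Zm00001d003559, infested B73 replicate 1 of the B96 experiment had 1462 CPM (others 788 to 847 CPM), and control replicate 4 of the F1 of B73 and B96 had 2329 CPM (others 1609 to 1702 CPM). For Zm00001d044495, control replicate 3 of the F1 of B73 and B75 had 3038 CPM, and the others 1810 to 1863 CPM.

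The mite response differed between an inbred and its F1 for Zm00001d003559 (-1.83 in log2 units, B96 minus F1), Zm00001d025509 (-1.06, B96 minus F1), Zm00001d036371 (-0.72, B96 minus F1) and Zm00001d012036 (0.98, B75 minus F1), each past the threshold of the edgeR test of the difference. In the 16 fits that left out 1 library, only the call of Zm00001d003559 was always kept. Zm00001d012036 lost its call in 12 of them, Zm00001d036371 in 3 and Zm00001d025509 in 2.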

How the results depend on the processing

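The members' median log2 fold change stayed below 0 in the 4 tested mite responses under each setting tried. With libraries scaled to total counts, the members' median log2 fold change was -0.94 in B96, -0.47 in B75 and -0.82 in the F1 of B73 and B75, 6 members rose in that F1 and 1 difference of B96 minus its F1 was higher. Members chosen from B73 controls 5 to 8 gave a median of -0.97 in B96, 5 rises in either F1, 1 higher difference for B96 minus its F1, 1 lower difference for B75 minus its F1, and a share change of -5.30 percentage points in B96. Fitting only the libraries of a contrast gave 77 falls in B75, and 2 higher differences for B75 minus its F1, where median-of-ratios factors or no filter gave 0. DESeq2 gave 1 higher and 6 lower differences for B96 minus its F1. With the 11 listed genes kept, the share changed by -8.73 points in B96, -8.12 in its F1, -7.62 in B73 of the B75 experiment, -5.82 in B75 and -7.72 in its F1.

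Without single libraries, rises numbered 3 to 6 in B96 (3 without control replicate 2 or infested replicate 1) and 1 to 3 in its F1 (1 without control replicate 2), the B75 median ran from -0.65 to -0.49, and the share change in the F1 of B73 and B96 from -6.13 to -4.24. Differences of B96 minus its F1 numbered 0 to 1 higher and 1 to 6 lower, and those of B75 minus its F1 0 to 1 higher. The cause of these shifts was not tested.

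Per the labels, each experiment had a randomized block layout, but they do not say that the replicate number is the block. With the number as a block, B96 minus its F1 had 1 higher and 4 lower differences, and B75 had 59 falls, against 50 without it. Correlations of same-numbered libraries ran from -0.201 to 0.441, not all over 0.1, so the numbers were not used as pairs. Of the controls, 11 of 24 correlated best with their own number. With 4 infested libraries to match, about 1 in 4 would do so by chance. The check does not decide whether the numbers are blocks.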
